A study of Mus musculus with 24 samples.

Results

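CB-R1 and B6 are mouse strains that lack Il10 and carry the B6 form of the colitis locus Cdcs1, while the rest of their genomes differs. Their unstimulated bone marrow-derived macrophages were compared on 6 of the 24 arrays of the study, chosen by the titles of the arrays, 3 per strain. CB-R1 (C3Bir.Cg-Il10tm1Cgn Cdcs1) has the C3Bir background and a long chromosome 3 segment of B6 that contains Cdcs1. B6 is C57BL/6J-Il10tm1Cgn. Both strains carry the Il10tm1Cgn allele, so no macrophages with an intact Il10 gene were in the comparison. Cells came from 3 male mice per genotype and were cultured for 6 days in medium with fetal calf serum, and 3 wells were pooled for each RNA sample. The labels number the arrays 1 to 3 but tie no number to a mouse, so p-values rest on array-to-array spread, which may be technical, and the number of arrays limits the precision. Other arrays used below are the same strains after 4 h with 1 µg/mL of flagellin, and unstimulated C3Bir (C3H/HeJBir-Il10tm1Cgn) and BC-R3 (B6.Cg-Il10tm1Cgn Cdcs1). C3Bir and BC-R3 differ by the same backgrounds, with the C3Bir form of Cdcs1 in both.

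Macrophages sense microbial products through Toll-like and cytosolic receptors. These signal to NF-kB and to interferon regulatory factors, which induce cytokines, chemokines and, through secreted interferon, a wide set of antiviral genes. Interleukin 10 is an anti-inflammatory cytokine that normally restrains this programme in macrophages and in the gut. Inbred strains also differ in many genes independently of activation, through gene deletions, copy number and regulatory variants, and a strain variant under an array probe can change its signal without a change in RNA.

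The arrays were uneven, and this touches most of the results. Averaged over 22 inflammatory cytokine genes, log2 values were 7.33, 7.30 and 7.39 on the CB-R1 unstimulated arrays, against 7.88, 9.53 and 9.57 on the B6 unstimulated arrays. B6 arrays 2 and 3 thus stood apart from B6 array 1 and from all 3 CB-R1 arrays. C3Bir unstimulated arrays 2 and 3 had 8.36 and 8.26, and the other 20 arrays of the study, apart from those 4, had no value above 7.88. These 4 are called the high arrays below, and the counts that lead each comparison that includes any of them are also given without them. Only B6 array 1 is then left, and its spread is assumed to be that of the other groups. Array medians ranged between 6.55 and 6.64 and no 2 arrays held identical values. Over all genes, CB-R1 unstimulated arrays correlated with each other at 0.995 to 0.998 and B6 unstimulated arrays at 0.986 to 0.997. The deposited log2 values carry no call of detection. Lower quartiles of the arrays lay at 5.29 to 5.42, so all differences are given on the log2 scale and none as a fold. Macrophage identity genes averaged 12.18, 12.13 and 12.24 in CB-R1 and 12.19, 11.89 and 11.89 in B6 (mean log2 value of 21 genes). The T and NK cell markers (13 genes) averaged 6.06 to 6.18 in CB-R1 and 5.96 to 6.03 in B6.

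In limma, 5741 of 18193 genes differed between CB-R1 and B6 (31.6%), with 3708 higher in CB-R1 (20.4%) and 2033 lower (11.2%). A gene was called at an adjusted p under 0.05 after Benjamini-Hochberg adjustment over all genes. The difference reached 1 on the log2 scale in 817 of them, 418 higher and 399 lower. The 3 arrays of one strain lay wholly above the 3 of the other in 5268 of the called genes (29.0% of all genes). Counting all 18193 genes, called or not, the CB-R1 arrays lay wholly above the B6 arrays in 4185 and wholly below in 3499. Arrays that do not overlap were therefore common and say little on their own. Without the high arrays 1287 genes were called (7.07%), 855 higher (4.70%) and 432 lower (2.37%), and 364 of the 1287 differed by at least 1. Among called genes whose arrays did not overlap, the 10 largest falls were Cxcl3, Acod1, Cd69, Cxcl10, Il6, Cxcl2, Ccl5, Il12b, Ifi213 and Cd40. The 10 largest rises were Ifi202b, Hal, Colec12, Zfp979, Nrcam, Ada, Cd300lf, Gpr34, Cxcl14 and Lpar6. In bulk RNA, fewer cells of a type and less RNA per cell cannot be told apart.

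**Figure D1:**
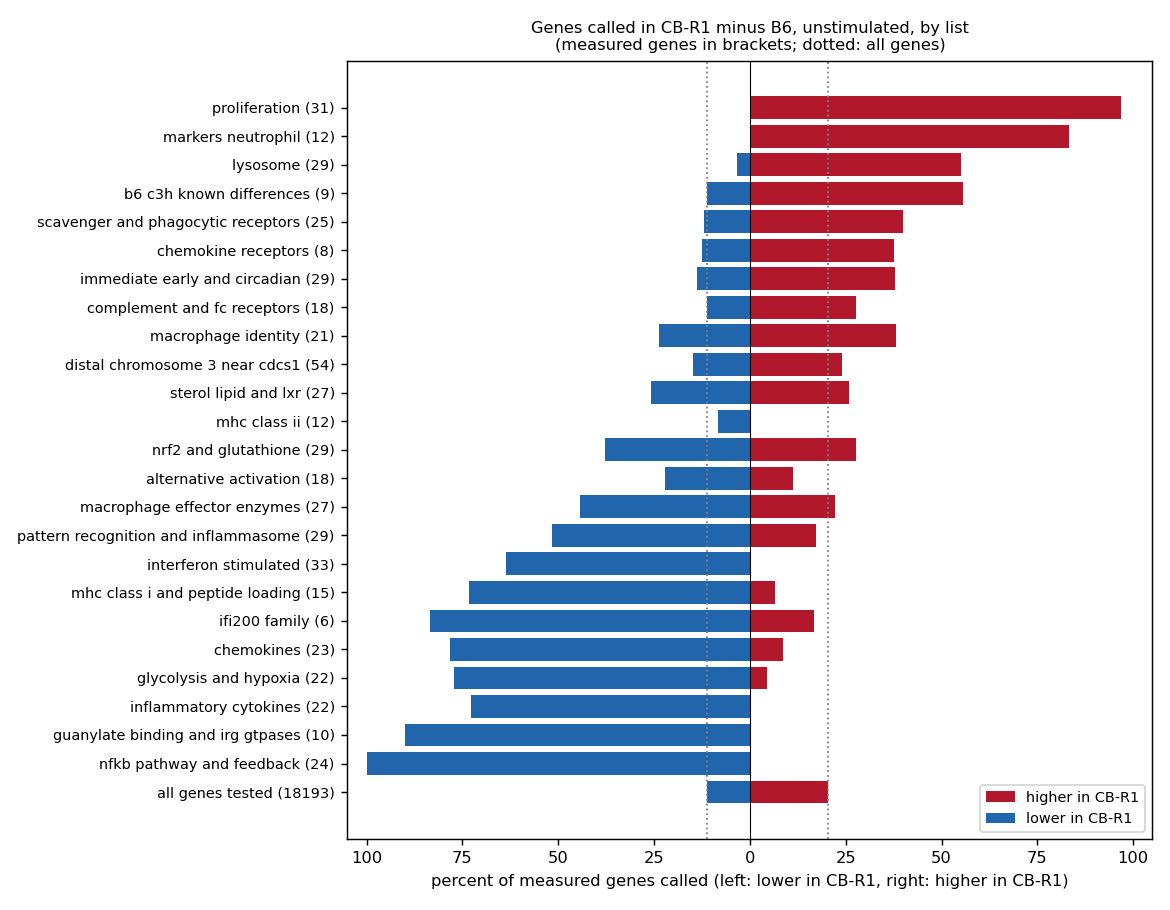
Percent of the measured genes of each list shown that were called higher (right, red) or lower (left, blue) in CB-R1 than in B6, unstimulated, with the number of measured genes in brackets and all genes tested in the bottom row. All 24 NF-kB genes were lower in CB-R1 and 30 of 31 proliferation genes were higher, beside 11.2% lower and 20.4% higher among all genes.

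Part of the strain difference was also present on arrays outside the comparison. On the flagellin arrays of the same strains, whose cells may come from the same donors, limma called 1589 genes (8.73%), 934 higher in CB-R1 (5.13%) and 655 lower (3.60%). Quantile normalization split them otherwise, with 806 higher and 881 lower, and without CB-R1 flagellin array 2 the count was 991. Unstimulated C3Bir against BC-R3, which shares no array with CB-R1 against B6, gave 1452 genes (7.98%), 634 higher in C3Bir (3.48%) and 818 lower (4.50%). Leaving out C3Bir array 2 or 3 or BC-R3 array 2 or 3 gave 811, 870, 873 and 793, in that order, and leaving out BC-R3 array 1 gave 2255. Of the 5741 genes, 1056 (18.4%) were called in the same direction with flagellin, which is 66.5% of the flagellin calls, and 11 in the opposite direction. In C3Bir against BC-R3, 506 (8.81%) were called in the same direction, which is 34.8% of that comparison's calls, and 169 in the opposite direction. Across the 18193 genes the differences of CB-R1 minus B6 correlated at r = 0.61 between unstimulated and flagellin arrays, and at 0.01 with C3Bir minus BC-R3. These r values describe genes, which are not independent replicates. The high arrays lie on the B6 side of CB-R1 minus B6 and on the C3Bir side of C3Bir minus BC-R3. They thus enter these differences with opposite sign, and r was not computed without them. How much of the background difference is shared cannot be read from the r of 0.01. In total 434 genes (2.39%) were called in the same direction in all 3 comparisons, 229 higher with the C3Bir background (1.26%) and 205 lower (1.13%), and without the high arrays 271 were. Of the 418 genes higher by at least 1, 186 were also higher with flagellin and 89 in C3Bir against BC-R3. For the 399 lower by at least 1 these counts were 98 and 50.

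**Figure D2:**
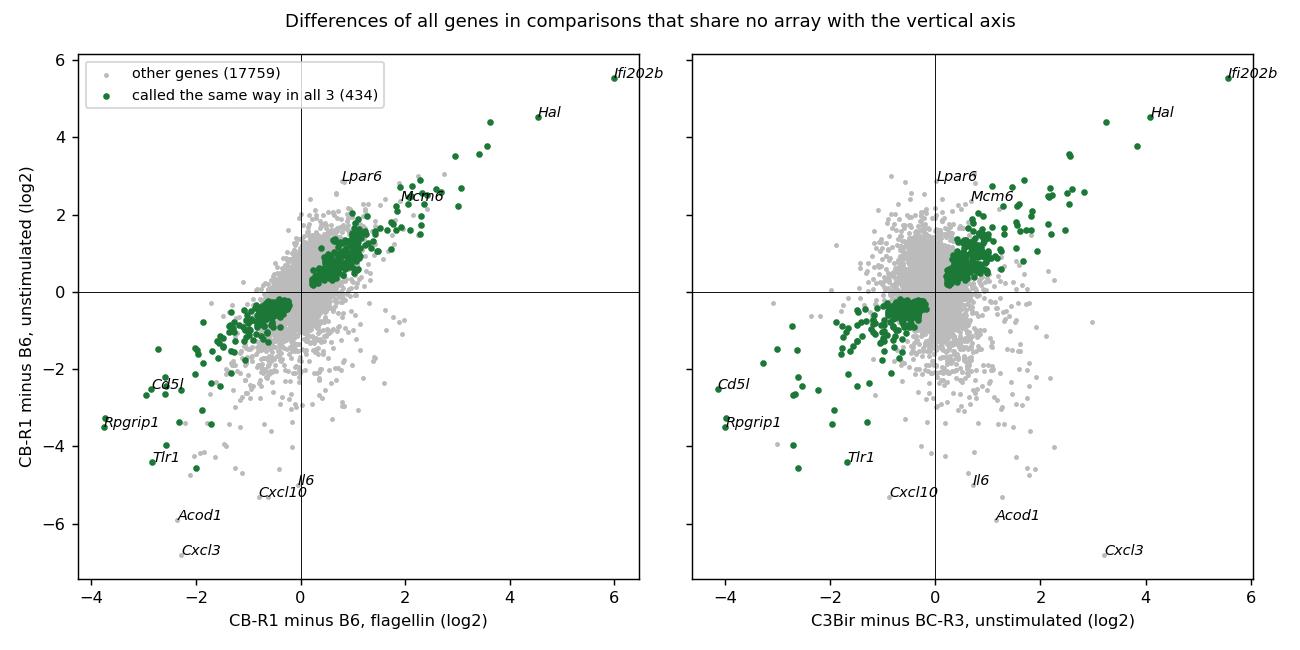
Log2 differences of all genes, CB-R1 minus B6 unstimulated (vertical) against CB-R1 minus B6 with flagellin (left) and C3Bir minus BC-R3 unstimulated (right). The 434 genes called the same way in all 3 are green; Ifi202b and Hal lie at the upper right and Rpgrip1 at the lower left of both panels, while Il6, Cxcl10 and Acod1 lie low on the vertical axis near or to either side of 0 on the horizontal one.

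The genes that were higher with the C3Bir background in all 3 comparisons were led by a DNA-binding protein of the interferon-inducible Ifi200 family. Ifi202b, known to be poorly expressed in C57BL/6 mice, had log2 values of 11.40, 11.42 and 12.08 in CB-R1, against 6.02, 6.05 and 6.23 in B6. The groups lay far apart, by 5.53 ± 0.23 (log2 ± SE, limma adjusted p = 1.23e-12). The same gene differed by 5.99 on the flagellin arrays and by 5.56 in C3Bir minus BC-R3. Hal, histidine ammonia-lyase, which degrades histidine, had 9.65, 9.98 and 10.09 in CB-R1 and 5.27, 5.68 and 5.20 in B6. Its difference was 4.53 ± 0.31 (adjusted p = 4.80e-09), with 4.54 on the flagellin arrays and 4.09 in C3Bir minus BC-R3. Colec12, a scavenger receptor of the collectin family, had 9.69, 9.63 and 9.52 in CB-R1, against 5.14, 5.10 and 5.38 in B6, a difference of 4.40 ± 0.22 (limma adjusted p = 2.65e-11). Every CB-R1 array of these 3 genes was above every B6 array, and each B6 mean was near or just above the lower quartile of the arrays.

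Further genes of this kind were the zinc finger gene Zfp979, at 3.78 ± 0.15, Nrcam, a neuronal cell adhesion molecule, at 3.56 ± 0.17, and Ada, adenosine deaminase of purine breakdown, at 3.50 ± 0.22 (log2 ± SE). Nrcam stood at 8.56, 8.30 and 8.39 in CB-R1 and at 4.77, 4.88 and 4.91 in B6. Ada had 9.65, 9.65 and 9.80 in CB-R1, against 6.42, 5.96 and 6.21 in B6. Cxcl14, a chemokine, was 11.01, 10.98 and 10.42 in CB-R1, against 8.16, 7.67 and 7.93 in B6, a difference of 2.88 ± 0.25 with 1.68 in C3Bir minus BC-R3. The groups overlapped in none of these genes, and each was called in all 3 comparisons. The glyoxalase gene Glo1, which varies in copy number between strains, differed by 1.43 ± 0.09 (limma adjusted p = 5.44e-10), by 1.06 with flagellin and by 0.99 in C3Bir minus BC-R3.

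Lower with the C3Bir background in all 3 comparisons were immune sensors and restriction factors among others. Tlr1, which pairs with Tlr2 to detect bacterial lipopeptides, had 5.65, 5.61 and 6.46 in CB-R1, against 10.40, 10.22 and 10.30 in B6. The 3 B6 arrays agreed closely here, also the ones with high cytokine values, and the difference was -4.40 ± 0.50 (limma adjusted p = 3.59e-06) and -4.49 without the high arrays. It was -2.84 with flagellin and -1.68 in C3Bir minus BC-R3. Rpgrip1, a protein of the photoreceptor cilium, had 6.33, 6.16 and 6.33 in CB-R1 and 9.81, 9.78 and 9.72 in B6, with a difference of -3.50 ± 0.11 (adjusted p = 1.30e-14 in limma). Trim12a, of the TRIM5-like family of antiviral proteins, had 4.32, 4.46 and 4.55 in CB-R1, against 7.84, 8.65 and 8.75 in B6. Slfn8, a Schlafen family gene, had 7.72, 7.95 and 8.30 in CB-R1, against 10.77, 11.75 and 11.73 in B6. Ifi213, of the Ifi200 family, had 5.06, 5.07 and 5.44 in CB-R1, against 8.99, 9.95 and 10.30 in B6. In Trim12a, Slfn8 and Ifi213 B6 array 1 was the lowest of the B6 arrays, yet far above CB-R1; without the high arrays their differences were -3.39, -2.78 and -3.79, against -3.97, -3.43 and -4.56 with them.

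The class I histocompatibility gene H2-D1 had the smallest adjusted p of the comparison. Its probe set gave 11.16, 11.10 and 11.22 in CB-R1, against 13.82, 13.69 and 13.86 in B6 (-2.63 ± 0.08, limma adjusted p = 8.29e-15). Of 8 further H2-D1 probe sets 4 were opposite in sign, all 4 at an unadjusted p under 0.05 in limma, so the direction for H2-D1 depends on the probe set. C3H and C57BL/6 mice are known to carry different haplotypes of this gene complex. Among the 137 genes selected for naming that were called, 60 had another probe set, 8 had one of opposite sign, and in 1, H2-D1, it also passed an unadjusted p of 0.05. Ifi202b, Hal, Colec12, Tlr1, Zfp979, Ada and Slfn8 had no other probe set, and for them a variant under the probes and a change of RNA cannot be told apart.

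**Figure D3:**
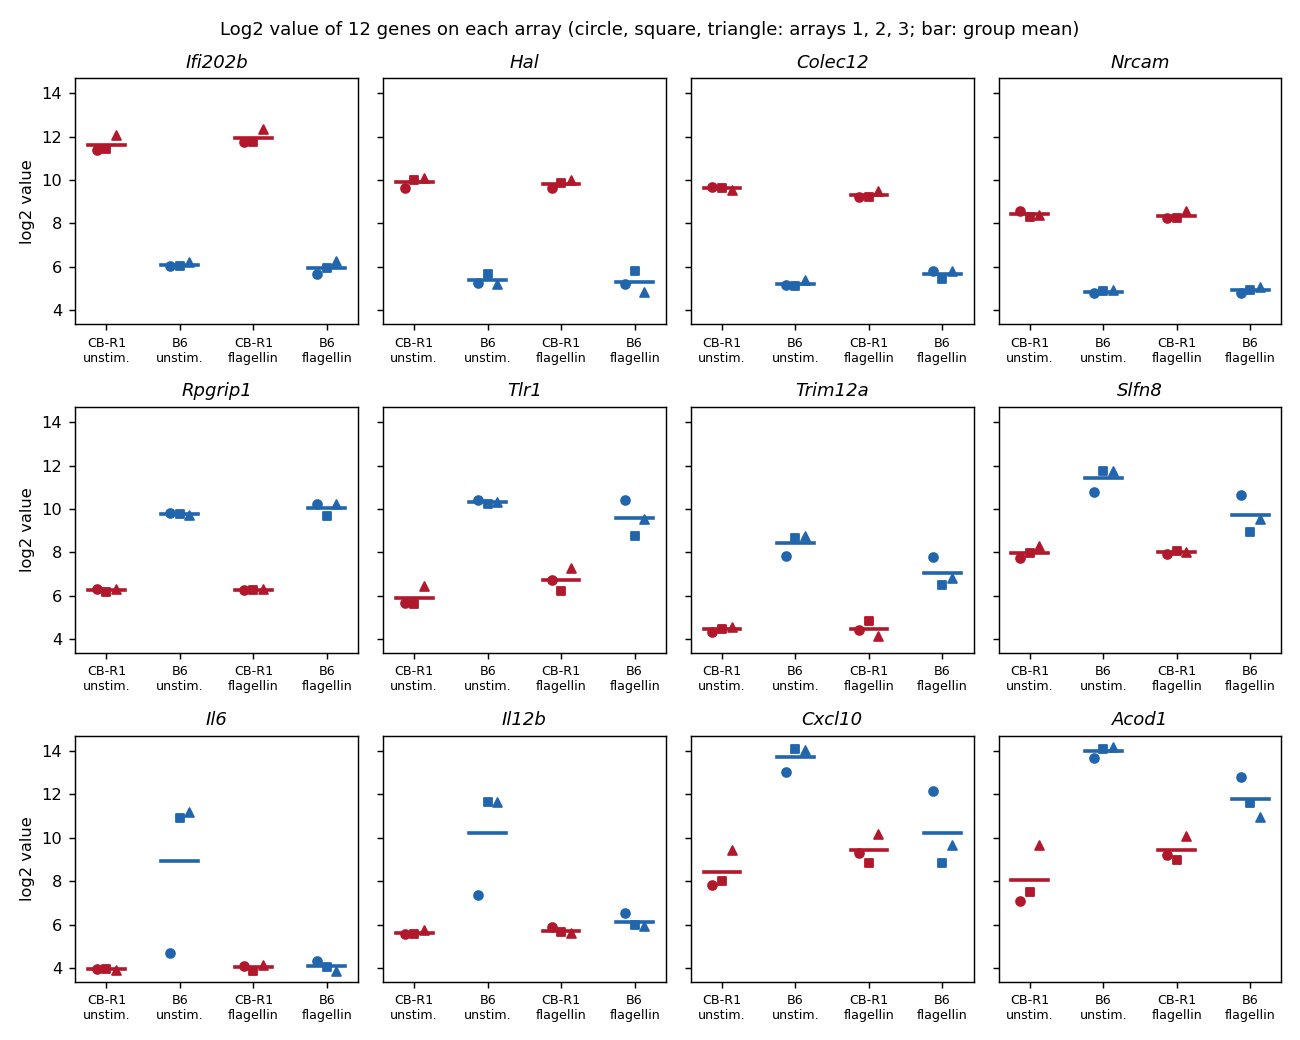
Log2 values of 12 genes on each of the 12 arrays of CB-R1 and B6, unstimulated and flagellin (circle, square and triangle are arrays 1, 2 and 3, the bar is the group mean). Ifi202b, Hal, Colec12, Nrcam and Rpgrip1 have CB-R1 and B6 wide apart in both conditions, whereas Il6 and Il12b are high on B6 unstimulated arrays 2 and 3 alone.

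Genes of the cell cycle and of DNA replication were higher in CB-R1. Of 31 proliferation genes 30 rose and 0 fell (median difference 0.82, against -0.02 over all genes), and Tyms was the 1 not called, at -0.15. The mean over the list was 8.55, 8.55 and 8.38 on the CB-R1 arrays, against 7.76, 7.47 and 7.57 on the B6 arrays, and the groups did not overlap. Mcm6, a subunit of the replicative helicase, had 10.54, 10.45 and 10.28 in CB-R1 and 8.38, 7.93 and 7.94 in B6 (2.34 ± 0.21, limma adjusted p = 2.25e-07). Cenpa, the centromeric histone, had 9.74, 9.76 and 9.37 in CB-R1 and 8.07, 7.06 and 7.28 in B6. Mcm7, another helicase subunit, and Rrm2, the small subunit of ribonucleotide reductase, differed by 1.60 ± 0.25 and 1.57 ± 0.21. On the flagellin arrays 23 of the 31 genes were higher in CB-R1 and 0 lower (median 0.63), and without the high arrays 19 were higher (median 0.67). In C3Bir minus BC-R3, 2 were higher and 1 lower (median 0.02). Of all genes 20.4% were higher unstimulated, 5.13% with flagellin and 3.48% in C3Bir minus BC-R3, where 4.50% were lower. The proliferation mean on C3Bir unstimulated arrays was 8.16, 7.88 and 7.68, against 7.82, 7.90 and 8.0 on BC-R3 unstimulated arrays, so these groups overlapped.

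Markers of neutrophils and their precursors were also higher in CB-R1. Of 12 neutrophil markers 10 were higher in CB-R1 and 0 lower (median 0.92), and their mean was 11.44, 11.66 and 11.63 in CB-R1, against 10.82, 10.13 and 10.12 in B6. Mpo, the myeloperoxidase of neutrophil granules, had 11.70, 11.90 and 11.97 in CB-R1, against 10.25, 8.63 and 8.24 in B6 (2.82 ± 0.44, limma adjusted p = 8.75e-05). Prtn3 and Elane, granule proteases, differed by 2.25 ± 0.43 and 1.76 ± 0.39, and Ltf, lactoferrin, by 1.48 ± 0.36. Both strains had high values of these granule genes, and B6 array 1 was the B6 array nearest to CB-R1. The list was also higher with flagellin, 10 of 12 (median 1.21), while without the high arrays 1 of the 12, Mpo, remained called (median 0.74). In C3Bir minus BC-R3 2 were higher and 0 lower (median 0.56). The shares of all genes that were higher were 20.4% unstimulated, 5.13% with flagellin and 3.48% in C3Bir minus BC-R3. The part of these markers in the other results was not tested.

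Inflammatory genes were lower in CB-R1, with larger differences when B6 arrays 2 and 3 were included. Of the 24 measured genes of NF-kB signalling and its feedback, all 24 were lower in CB-R1 (median -1.56), in the limma fit of all arrays and in each fit that left out 1 array of the 2 groups. Their mean was 8.89, 8.93 and 9.27 on CB-R1 arrays, against 10.24, 10.93 and 10.96 on B6 arrays, so B6 array 1 also lay above every CB-R1 array. Socs3, an inhibitor of cytokine signalling, had 6.91, 6.42 and 7.17 in CB-R1, against 10.15, 11.61 and 11.58 in B6. Traf1, an adaptor of TNF receptors, differed by -3.51 ± 0.62. Nfkbiz and Nfkbie, of the I-kB family of NF-kB regulators, differed by -2.75 ± 0.64 and -2.71 ± 0.46. Without the high arrays 11 of the 24 were lower and 0 higher (median -1.04). With flagellin 2 were lower (median -0.59), and in C3Bir minus BC-R3 1 was lower (median 0.41). Among all genes 11.2% were lower unstimulated, 3.60% with flagellin and 4.50% in C3Bir minus BC-R3. The count of 1 was near that last share.

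Cytokine genes differed most on B6 arrays 2 and 3. The high arrays were picked by the mean of the same 22 cytokine genes. A smaller cytokine difference without them therefore follows from that choice and is no separate check. Il6, a pro-inflammatory cytokine, had 3.97, 3.94 and 3.89 in CB-R1, against 4.69, 10.93 and 11.20 in B6. Every CB-R1 array lay below the B6 arrays, but B6 array 1 was close to them. The difference was -5.01 ± 0.99 (limma adjusted p = 6.47e-04), and -0.76 (adjusted p = 0.0844) without the high arrays. Il12b, the subunit shared by interleukins 12 and 23, had 5.55, 5.55 and 5.74 in CB-R1, against 7.36, 11.64 and 11.63 in B6. It stood at -4.60 ± 0.95, or at -1.75 (limma adjusted p = 0.105) without the high arrays. Tnf had 8.41, 8.48 and 8.61 in CB-R1, against 11.40, 13.31 and 13.26 in B6, a difference of -4.16 ± 0.63 that stayed called at -2.90 (limma adjusted p = 0.00864) without them. Il1b, the gene of interleukin 1 beta, stood at -4.02 ± 0.78, or at -1.85 (limma adjusted p = 0.120) without them. Of 22 cytokine genes 16 were lower and 0 higher (median -0.98), 3 without the high arrays (median -0.20) and 0 with flagellin, where the limma median was -0.02. Among all genes 11.2% were lower and 20.4% higher unstimulated, and 3.60% were lower with flagellin. The count of 0 with flagellin was near that share. The probe set of Il10, which is disrupted in both strains, gave 6.81, 6.76 and 6.63 in CB-R1, against 7.16, 8.70 and 8.41 in B6.

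Chemokines of neutrophils, monocytes and T cells were lower as well. The shares over all genes and all arrays were 11.2% lower and 20.4% higher. Of 23 genes 18 were lower and 2 higher (median -1.84), or 10 lower and 1 higher without the high arrays (median -0.82). Cxcl3, a neutrophil attractant, had 3.76, 3.62 and 3.91 in CB-R1, against 8.44, 11.50 and 11.79 in B6. This was the largest fall of the genes selected, -6.81 ± 1.45 (limma adjusted p = 0.00120), and -4.67 (adjusted p = 0.0575) without the high arrays. Cxcl2, of the same family, had 7.48, 7.36 and 9.34 in CB-R1, against 11.77, 13.32 and 13.33 in B6. Ccl5, an attractant of T cells and monocytes, had 8.43, 8.73 and 9.70 in CB-R1, against 12.92, 14.00 and 13.99 in B6. Cxcl2 and Ccl5 were called also without the high arrays, at -3.71 and -3.96. Ccl3, a CC chemokine, was lower with flagellin too, at -1.93 against -4.17 ± 0.58 unstimulated.

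Of 27 macrophage effector enzymes 12 were lower and 6 higher (median -0.32), or 4 lower and 3 higher without the high arrays. Over all arrays these counts stand beside 11.2% lower and 20.4% higher among all genes. Acod1, which makes itaconate, had 7.09, 7.48 and 9.65 in CB-R1, against 13.70, 14.08 and 14.17 in B6. CB-R1 array 3 was the nearest to B6, and the difference was -5.91 ± 1.01 (limma adjusted p = 1.93e-04). Cd40, a costimulatory receptor, had 7.45, 7.08 and 8.48 in CB-R1, against 11.01, 12.80 and 12.85 in B6. Cd69, a lectin-like activation marker, differed by -5.31 ± 0.91. Ptgs2, the inducible cyclooxygenase, stood at -3.41 ± 0.94 but at -0.95 without the high arrays. Acod1 and Cd40 stayed called without those arrays, at -5.62 and -3.34, while Cd69, at -3.81, had an adjusted p of 0.0533 in limma. Among the rises, Cd300lf, an inhibitory receptor of myeloid cells, had 11.13, 11.32 and 11.52 in CB-R1, against 8.64, 8.13 and 8.04 in B6 (3.05 ± 0.35, limma adjusted p = 4.59e-06) and was also higher with flagellin, by 2.74. The receptor gene Gpr34 differed by 3.01 ± 0.70, and Lpar6, a lysophosphatidic acid receptor, by 2.87 ± 0.44, with 1.43 without the high arrays.

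Interferon-stimulated genes were lower in unstimulated CB-R1 cells. Of 33 genes 21 were lower and 0 higher (median -1.25), beside 11.2% lower and 20.4% higher among all genes. Their mean was 9.79, 10.01 and 10.75 in CB-R1, against 11.11, 11.92 and 11.96 in B6, with the highest CB-R1 array below the lowest of B6. Cxcl10, an interferon-induced attractant of T cells, had 7.83, 8.02 and 9.42 in CB-R1, against 13.03, 14.10 and 14.06 in B6 (-5.31 ± 0.84, limma adjusted p = 9.41e-05). Ifit1, which binds foreign RNA, had 9.60, 9.98 and 11.30 in CB-R1, against 12.63, 13.64 and 13.48 in B6 (-2.96 ± 0.74, adjusted p = 0.00434). Oasl1, of the oligoadenylate synthetase family, and Mx1, an antiviral GTPase, differed by -3.29 ± 0.71 and -3.07 ± 0.77. Without the high arrays Cxcl10 was the 1 gene of the list still called, at -4.61 (adjusted p = 0.0342 in limma), and the list's median was -0.66. On the flagellin arrays the median turned to 0.81, with 4 of 33 higher and 0 lower, beside 5.13% and 3.60% of all genes. The list's mean there was 10.48, 10.33 and 10.96 in CB-R1, against 10.82, 9.0 and 9.56 in B6, so the groups overlapped at B6 array 1.

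Interferon-induced GTPases had the same direction. Over all arrays, 11.2% of all genes were lower and 20.4% higher. Of 10 guanylate-binding and IRG genes 9 were lower (median -2.32), and 0 were called without the high arrays, where the median was -1.36. Gbp2 and Gbp3, guanylate-binding proteins of distal chromosome 3, differed by -2.93 ± 0.61 and -2.90 ± 0.65, and Gbp7 by -2.76 ± 0.59. Gbp2 had 8.81, 9.05 and 9.94 in CB-R1, against 10.90, 12.85 and 12.84 in B6, where array 1 lay between the other B6 arrays and CB-R1. In the Ifi200 family 5 of 6 genes were lower and 1, Ifi202b, higher, or 1 lower and 1 higher without the high arrays. Leaving out 1 array gave 3 to 5 lower. Ifi204 differed by -1.80 ± 0.43, and by -1.24 (limma adjusted p = 0.279) without the high arrays.

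Promoters of 2 interferon-stimulated and 2 inflammatory genes from the falls above are shown to place the sequence elements of both programmes. They are windows of 300 bases, 250 before to 50 after the RefSeq start, on GRCm38.p6 and in the direction of the gene. Capitals mark matches on either strand to GAAA followed after any 2 bases by GAAA, a core of the interferon-stimulated response element, or to GGGA followed after any 1 base by TTTCC, a kappa B site. The windows are Cxcl10 at chr5:92348840-92349139 (minus strand), Ifit1 at chr19:34640639-34640938 (plus), Cxcl2 at chr5:90903649-90903948 (plus) and Il6 at chr5:30012864-30013163 (plus).
Cxcl10: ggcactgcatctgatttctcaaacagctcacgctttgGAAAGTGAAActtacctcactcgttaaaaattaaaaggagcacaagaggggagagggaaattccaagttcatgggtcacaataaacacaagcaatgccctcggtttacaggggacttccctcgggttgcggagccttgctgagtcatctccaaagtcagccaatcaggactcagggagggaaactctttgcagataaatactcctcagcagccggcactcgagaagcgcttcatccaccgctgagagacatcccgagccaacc
Ifit1: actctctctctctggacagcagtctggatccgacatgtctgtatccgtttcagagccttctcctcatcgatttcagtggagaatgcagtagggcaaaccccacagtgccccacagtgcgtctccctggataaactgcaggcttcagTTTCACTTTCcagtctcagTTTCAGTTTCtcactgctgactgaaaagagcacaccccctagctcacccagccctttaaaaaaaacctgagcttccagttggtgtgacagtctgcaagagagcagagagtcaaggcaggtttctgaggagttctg
Cxcl2: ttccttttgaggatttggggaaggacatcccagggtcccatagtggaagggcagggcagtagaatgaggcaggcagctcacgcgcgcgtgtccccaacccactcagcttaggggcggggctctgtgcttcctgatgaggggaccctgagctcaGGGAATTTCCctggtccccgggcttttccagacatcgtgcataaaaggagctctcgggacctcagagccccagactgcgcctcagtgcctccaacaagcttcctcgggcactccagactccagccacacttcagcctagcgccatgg
Il6: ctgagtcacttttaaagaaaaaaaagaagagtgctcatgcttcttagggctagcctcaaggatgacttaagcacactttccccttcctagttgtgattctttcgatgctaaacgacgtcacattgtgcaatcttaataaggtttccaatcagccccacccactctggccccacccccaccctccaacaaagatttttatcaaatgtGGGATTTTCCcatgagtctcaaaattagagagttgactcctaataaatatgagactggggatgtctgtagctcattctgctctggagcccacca
Cxcl10 held 1 match to the interferon element, 213 to 204 bases before its start, and Ifit1 held 2, in reverse orientation, at 104 to 95 and 85 to 76 bases before its start. Cxcl2 and Il6 each held 1 kappa B match, 97 to 88 and 44 to 35 bases before their starts. Among the interferon-stimulated genes, 13 of the 25 with a window matched the interferon element (52.0%), and among the guanylate-binding and IRG genes 7 of 8 (87.5%), against 943 of 27025 genes in the table (3.49%). The kappa B letters were in 3 of 15 chemokine windows (20.0%) and in 1 of 21 windows of NF-kB genes (4.76%), against 104 of 27025 (0.385%). Of 25 proliferation windows 1 matched each motif (4.0%). A match is a description of the letters and was not tied to binding.

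Among sensors of microbes more genes were lower than higher, beside 11.2% lower and 20.4% higher among all genes. The share that was higher did not exceed that of all genes. Of 29 pattern recognition and inflammasome genes 15 were lower and 5 higher (median -0.36), or 8 lower and 1 higher without the high arrays. Tlr2, the partner of Tlr1, had 10.15, 10.03 and 10.67 in CB-R1, against 12.34, 12.47 and 12.49 in B6 (-2.15 ± 0.38, limma adjusted p = 2.57e-04), and all 3 B6 arrays were alike. Nlrp3, an inflammasome sensor, differed by -2.61 ± 0.36, and Clec4e, a receptor for mycobacterial glycolipid, by -2.80 ± 0.54. Tlr5, the surface receptor for flagellin, had 7.23, 7.51 and 7.51 in CB-R1, against 7.22, 7.41 and 7.36 in B6 (0.09 ± 0.10, adjusted p = 0.548 in limma). Naip5, which detects flagellin in the cytosol, was higher by 0.57 ± 0.18 (adjusted p = 0.0188 in limma), but not called without the high arrays, at 0.44. Tlr4, the receptor for lipopolysaccharide, of which C3H/HeJ mice are known to carry an impaired form, had 8.57, 8.57 and 8.76 in CB-R1, against 8.18, 8.21 and 8.04 in B6. The difference of 0.49 ± 0.17 was small (limma adjusted p = 0.0289), and the sign was opposite in 1 of 3 further probe sets of Tlr4.

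Genes of antigen presentation were counted by class, beside 20.4% higher and 11.2% lower among all genes. Of 15 class I and peptide loading genes 11 were lower and 1 higher (median -0.53), or 4 lower and 1 higher without the high arrays. Tap1, a subunit of the peptide transporter, had 8.73, 8.86 and 9.17 in CB-R1, against 10.57, 11.57 and 11.57 in B6 (-2.32 ± 0.30, limma adjusted p = 1.35e-05). H2-T24, a nonclassical class I gene, was the 1 higher, with 9.50, 9.69 and 10.77 in CB-R1, against 7.67, 7.87 and 7.75 in B6. Of 12 class II genes 1 was lower, or 2 without the high arrays. The 1 called over all arrays was H2-Ab1, at -1.10 ± 0.26, and it was lower with flagellin too, at -0.86. H2-Ea, a class II alpha chain known to be deleted in part in C57BL/6 mice, stood at 9.50, 9.48 and 9.55 in CB-R1 and at 9.40, 9.43 and 9.41 in B6 (limma adjusted p = 0.635). The B6 values lay far above the lower quartiles of the arrays, 5.29 to 5.42. What this probe set detected was not tested, so equal RNA of H2-Ea cannot be read from it.

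Glycolytic and hypoxia-responsive genes were lower in CB-R1, and B6 arrays were alike in Pfkl and Slc16a3. Of 22 genes 17 were lower and 1 higher (median -0.45), with 8 lower without the high arrays (median -0.41). Pfkl, a phosphofructokinase of glycolysis, had 10.11, 10.09 and 10.09 in CB-R1, against 11.50, 11.45 and 11.60 in B6 (-1.42 ± 0.21, limma adjusted p = 4.84e-05). Slc16a3, a lactate exporter, had 9.32, 9.42 and 9.29 in CB-R1, against 10.68, 10.62 and 10.80 in B6. Slc2a1, the glucose transporter, differed by -1.52 ± 0.29, and Bnip3, a mitophagy receptor, by -1.26 ± 0.20. Leaving out B6 array 3 gave 12 lower, as did a fit of the compared arrays alone. With flagellin 7 were lower and 1 higher, with a median of -0.22. Among all genes 11.2% were lower and 20.4% higher unstimulated, and 3.60% and 5.13% with flagellin.

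Genes of glutathione and redox metabolism were split, with 11 of 29 lower and 8 higher, or 7 lower and 3 higher without the high arrays. The shares over all genes and all arrays were 11.2% lower and 20.4% higher. Slc7a11, the cystine importer, had 6.48, 6.04 and 6.29 in CB-R1, against 8.44, 10.28 and 10.25 in B6 (-3.39 ± 0.66, adjusted p = 5.90e-04 in limma), and stood at -2.17 without the high arrays. Sod2, the mitochondrial superoxide dismutase, stood at -2.55 ± 0.44. Srxn1, which repairs peroxiredoxins, differed by -1.89 ± 0.24 and Txnrd1, thioredoxin reductase, by -1.72 ± 0.26, and both were lower with flagellin too, at -1.32 and -1.13. Nnt, a mitochondrial transhydrogenase of which C57BL/6J mice carry a known deletion, was higher by 0.90 ± 0.11 (adjusted p = 7.38e-06 in limma), though 1 of 2 further probe sets pointed the other way.

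Lysosomal genes were more often higher, 16 of 29 with 1 lower (median 0.37), or 7 higher and 1 lower without the high arrays. For this and the next lists, 20.4% of all genes were higher and 11.2% lower over all arrays. Ctse, an aspartic protease, had 11.84, 11.87 and 12.06 in CB-R1, against 10.87, 10.05 and 10.15 in B6. Man2b1 and Manba, mannosidases, differed by 0.95 ± 0.13 and 0.88 ± 0.16, while Mcoln2, a lysosomal cation channel, differed by -1.49 ± 0.26 and stood at 8.18, 8.36 and 8.57 in CB-R1, against 9.58, 9.98 and 10.01 in B6. Sterol and lipid genes divided evenly, with 7 higher and 7 lower of 27 (1 higher and 5 lower without the high arrays), among them Pparg, a lipid-sensing nuclear receptor, at 1.47 ± 0.23, and Nr1h3, the oxysterol receptor LXR alpha, at -1.46 ± 0.26. Of 21 macrophage identity genes 8 were higher and 5 lower, or 3 and 2 without the high arrays. Cebpa, a myeloid transcription factor, had 12.42, 12.30 and 12.27 in CB-R1, against 11.81, 10.45 and 10.52 in B6. Fcgrt, the neonatal Fc receptor, differed by 1.66 ± 0.27 and Mitf, a transcription factor of lysosome genes, by -1.06 ± 0.19. Fcgr3, an activating Fc receptor, differed by 1.39 ± 0.18 and Fcgr2b, the inhibitory one, by -0.83 ± 0.19.

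Markers of other cell types were counted in short lists. Of 9 erythroid and megakaryocyte markers 4 were lower, all 4 of the platelet lineage, beside 11.2% lower among all genes. Ppbp, platelet basic protein, had 7.06, 6.94 and 7.72 in CB-R1, against 9.07, 9.05 and 9.11 in B6 (-1.84 ± 0.19, limma adjusted p = 1.55e-06), and stood at -1.87 with flagellin and at -3.28 in C3Bir minus BC-R3. Itga2b, an integrin of megakaryocytes, differed by -0.68 ± 0.09. Of 14 stromal markers 0 were called in limma, and their mean was 8.75, 8.34 and 8.22 in CB-R1, against 7.71, 8.50 and 8.94 in B6. In the B cell list 1 of 8 genes was higher and 1 lower, and in the eosinophil list 1 of 4 was higher and 1 lower. The osteoclast list had 2 of 9 higher and 1 lower. The dendritic and mast cell lists had 2 of 9 and 1 of 9 lower, with 0 higher. The T and NK cell list had 3 of 13 higher and the endothelial and adipocyte list 2 of 8 lower, beside 20.4% higher and 11.2% lower among all genes. Without the high arrays these counts were 1 and 0.

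**Figure D4:**
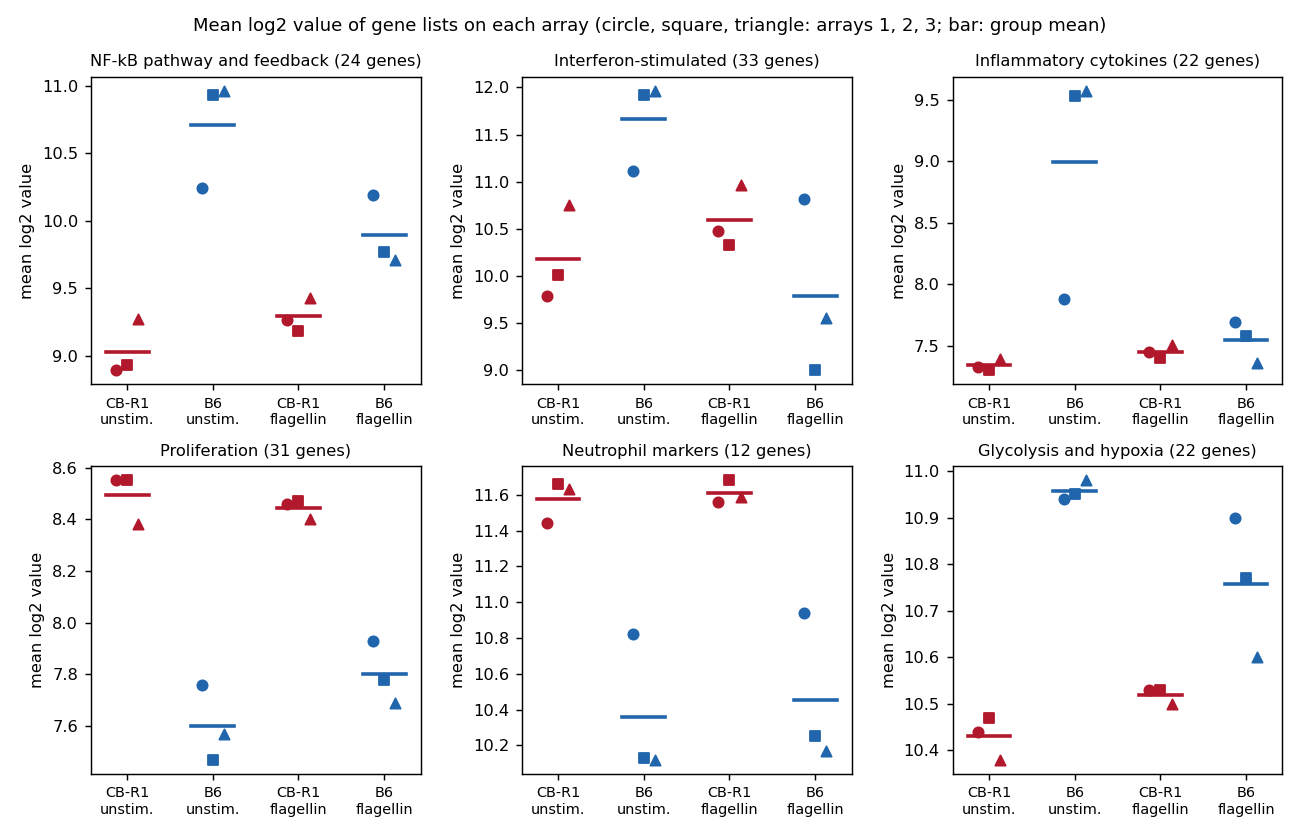
Mean log2 value of 6 gene lists on the 12 arrays of CB-R1 and B6 (red and blue), unstimulated and flagellin, with symbols for arrays 1, 2 and 3 and a bar for the group mean. Cytokine means are high on B6 unstimulated arrays 2 and 3, at 9.53 and 9.57, while proliferation and neutrophil means are higher in CB-R1 on both kinds of arrays.

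On chromosome 3, where CB-R1 carries a long segment of B6, 274 of 913 genes were called (30.0%), 173 higher and 101 lower, beside 31.6% of all genes. Without the high arrays 59 were called, beside 7.07% of all genes. The autosomes ranged between 26.8% on chromosome 18 and 34.2% on chromosome 17. Among genes called in the same direction in all 3 comparisons 20 were on chromosome 3, which is 2.19% of its genes, with a range over autosomes of 0.967% to 3.31%. C3Bir minus B6 itself had 3046 genes called in limma (16.7%), 1899 higher (10.4%) and 1147 lower (6.30%). Without the high arrays, which leave 1 array of each strain, it had 255. Its values are given beside those of CB-R1 minus B6, which share the 3 B6 arrays. Gbp2b, a guanylate-binding protein, had 6.01, 5.62 and 6.06 in CB-R1, 9.29, 11.61 and 11.61 in C3Bir and 5.60, 6.08 and 5.49 in B6. It differed by 0.18 ± 0.57 in CB-R1 minus B6 and by 5.12 ± 0.57 in C3Bir minus B6. Ifi44l, an interferon-induced gene, had 5.44, 5.08 and 5.33 in CB-R1, 10.78, 10.00 and 9.68 in C3Bir and 5.14, 5.68 and 5.04 in B6. Olfml3, a secreted olfactomedin-like protein, had 10.27, 10.08 and 10.17 in CB-R1, 7.17, 7.42 and 7.35 in C3Bir and 10.30, 9.07 and 9.60 in B6. Olfml3 was called higher in CB-R1 than in B6, by 0.52 ± 0.19 (limma adjusted p = 0.0439), with overlapping arrays, and differed by -2.34 ± 0.19 in C3Bir minus B6. In all 3 genes C3Bir lay outside the range of both CB-R1 and B6.

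Other chromosome 3 genes differed from B6 in both strains. Cd5l, a secreted macrophage protein, had 9.63, 9.59 and 9.93 in CB-R1, 9.19, 8.20 and 7.83 in C3Bir and 12.34, 12.16 and 12.23 in B6. It differed by -2.53 ± 0.24 in CB-R1 minus B6 (limma adjusted p = 4.71e-07), -2.85 with flagellin and -4.14 in C3Bir minus BC-R3. Tmem154, a transmembrane protein, was higher by 2.26 ± 0.27 in CB-R1 and 1.44 ± 0.27 in C3Bir, each minus B6. Gclm, of glutathione synthesis, stood at -1.71 ± 0.20 in CB-R1 minus B6 and at -0.81 ± 0.20 in C3Bir minus B6. Mcoln3, a lysosomal channel, was higher by 0.84 ± 0.13 in CB-R1 minus B6 (limma adjusted p = 7.81e-05) and stood at -0.90 ± 0.13 in C3Bir minus B6. Of 54 listed genes near Cdcs1 13 were higher and 8 lower in CB-R1 (median 0.01), beside 20.4% and 11.2% of all genes, or 4 higher and 1 lower without the high arrays. Vcam1, an adhesion molecule, stood at -2.30 ± 0.46, or at -0.92 without the high arrays.

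**Figure D5:**
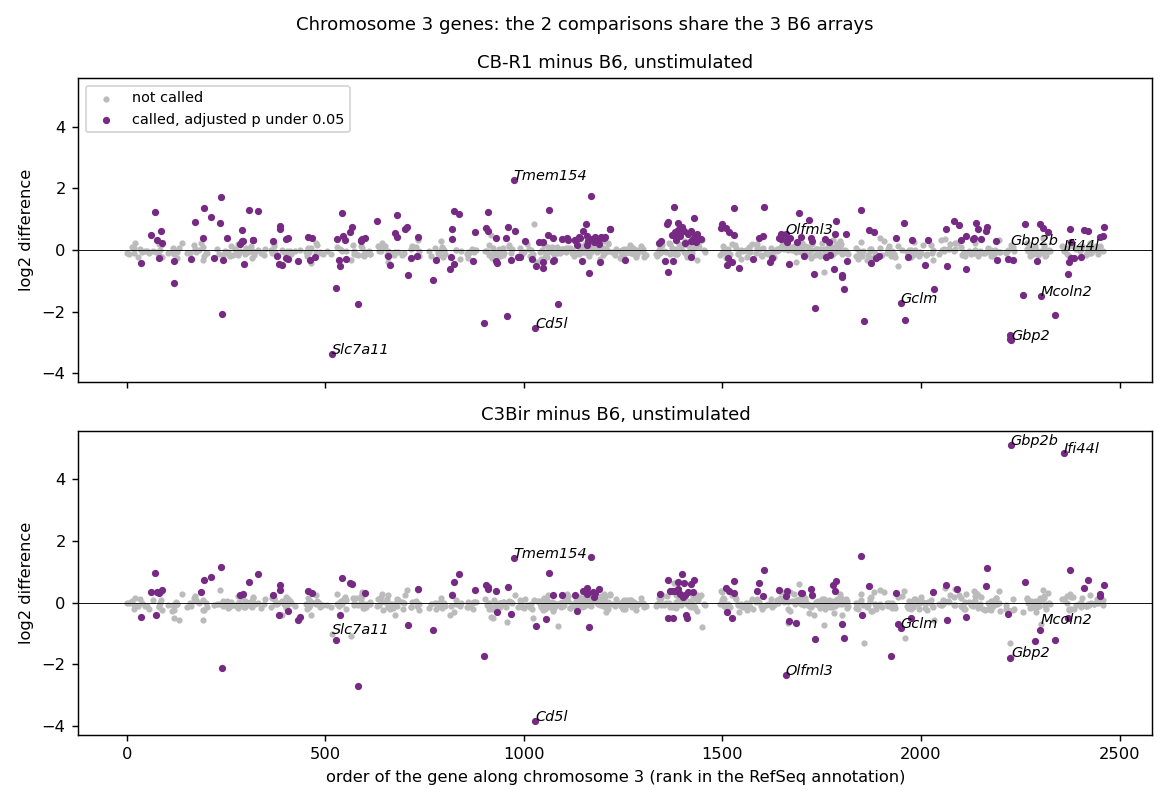
Log2 differences of chromosome 3 genes in their order along the chromosome, CB-R1 minus B6 (top) and C3Bir minus B6 (bottom), unstimulated, purple where called in limma. Gbp2b and Ifi44l are near 0 in the top panel and at 5.12 and 4.87 in the bottom one, and Cd5l is low in both.

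Whether the strain difference depended on condition was tested as a difference of differences. Limma called 456 genes (2.51%), with 252 of higher (1.39%) and 204 of lower (1.12%) CB-R1 minus B6 difference unstimulated than with flagellin. Cxcl10 had 9.29, 8.82 and 10.17 in CB-R1, against 12.15, 8.84 and 9.69 in B6, on flagellin arrays, and its difference unstimulated minus that with flagellin was -4.51 ± 1.18 (adjusted p = 0.0473 in limma). Gpr183, an oxysterol receptor, had 9.61, 9.55 and 9.59 in CB-R1, against 9.32, 9.23 and 9.64 in B6, on flagellin arrays. Unstimulated it stood at 9.82, 9.57 and 9.44 in CB-R1 and at 8.54, 6.46 and 6.61 in B6, and its 2 differences were apart by 2.22 ± 0.54 (limma adjusted p = 0.0441). Among interferon-stimulated genes 18 of 33 had a lower difference unstimulated, while 0 of 31 proliferation genes were called in limma in either direction. The count of 456 changed with single arrays and with the choice of probe sets. With averaged probe sets limma called 0 genes, with 4535 at an unadjusted p below the threshold. The count became 0 in limma when any 1 CB-R1 flagellin array, CB-R1 unstimulated array 1 or 2, B6 unstimulated array 2 or 3, or B6 flagellin array 3 was left out, with 3258 to 4297 genes at an unadjusted p below the threshold in these fits. It was also 0 in a limma fit of the 12 arrays alone (4156 unadjusted) and without the high arrays (1025 unadjusted). Leaving out B6 unstimulated array 1 gave 3117 genes, and leaving out B6 flagellin array 2 gave 1082.

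The same background change gave other differences where both strains carried the C3Bir form of Cdcs1. The difference between CB-R1 minus B6 and C3Bir minus BC-R3, unstimulated, was called in 5109 genes (28.1%), 3281 higher (18.0%) and 1828 lower (10.0%). Among NF-kB genes 23 of 24 had a lower difference in CB-R1 minus B6, as had 17 of 23 chemokines, with 2 higher. Cxcl3 stood at -6.81 in CB-R1 minus B6 and at 3.21 in C3Bir minus BC-R3, a gap of -10.03 ± 2.05 (limma adjusted p = 0.00219). Each comparison holds 2 of the high arrays, on the B6 side of CB-R1 minus B6 and on the C3Bir side of C3Bir minus BC-R3. Without them limma called 0 genes, while 1900 had an unadjusted p below the threshold.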

How the data were processed

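RNA of bone marrow-derived macrophages was measured on 24 Affymetrix arrays (8 groups of 3). The log2 values of each probe set were deposited by the authors; their normalization was not given in the sources used here, and no filter was added. Of 45037 probe sets 4 had no values, 34944 had 1 gene symbol, 931 several and 9158 none. Where a gene had several probe sets, the 1 of highest mean over all arrays was kept, leaving 18193 genes. Limma 3.58.1 in R 4.3.3 fitted the 8 group means to all 24 arrays (16 residual degrees of freedom), with eBayes defaults and Benjamini-Hochberg adjustment within each contrast, two-sided. On simulated data with 200 changed genes, 97 of 100 differences of 1 and 100 of 100 of 2 on the log2 scale were called for CB-R1 minus B6 unstimulated, as were 9 of 17993 unchanged genes. The simulated noise was independent between arrays, with the same spread of a gene in all groups. It held no shift shared by arrays, like that of the high arrays, so the error under such a shift was not tested.

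The members and the 33 gene lists (650 genes, 588 measured, 62 not analysed here) were chosen with earlier results of these data known. Genes named were the 10 largest rises and falls with non-overlapping arrays, the 5 largest in each direction called in all 3 comparisons, in each difference of differences and on chromosome 3, up to 4 called members per list, and fixed genes of sensing and of the strains. Tyms, Gclm, Mcoln3, Olfml3 and Ifi44l were added after their values were seen. Chromosomes and promoter sequences came from RefSeq tables of GRCm38.p6, in which 18032 genes had a chromosome. Same-numbered arrays of CB-R1 and B6 did not deviate together (correlations 0.07, -0.04 and 0.10), so the arrays were not treated as pairs. Same-numbered arrays did deviate together for C3Bir and B6 unstimulated (0.36 to 0.55), which both have high arrays 2 and 3. They also did for CB-R1 unstimulated and flagellin (0.30 to 0.50) and for C3Bir unstimulated and flagellin (0.31 to 0.48). Correlations above 0.1 on all 3 numbers were further found for BC-R3 flagellin with CB-R1 unstimulated (0.11 to 0.44). The same held for B6 flagellin with BC-R3 unstimulated (0.13 to 0.31) and with BC-R3 flagellin (0.12 to 0.35). A number as a block is therefore among the alternatives. Alternatives were quantile normalization, a filter at a mean log2 value of 6, averaged probe sets, trended and robust eBayes, only the compared arrays, array weights, a replicate block, leaving out each array and leaving out the 4 high arrays. The block for C3Bir minus B6, and some counts without the high arrays, were added after seeing the data.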

Additional observations from a re-analysis of the deposited data

Results flagged for a closer look

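The dependence of CB-R1 minus B6 on the condition is given here because the difference itself passed the test in 456 genes in limma. It is the unstimulated difference minus that with flagellin. The largest positive values were Gpr183 at 2.22, Neat1, a nuclear noncoding RNA, at 1.94, Dbp, a clock-controlled transcription factor, at 1.83, Cxcr4, a chemokine receptor, at 1.69 and Snx24, a sorting nexin, at 1.60. On the flagellin arrays Neat1 had 12.29, 12.09 and 11.53 in CB-R1, against 11.63, 12.08 and 12.27 in B6, and unstimulated 12.40, 12.33 and 11.99 in CB-R1, against 11.43, 9.85 and 9.70 in B6. The largest negative values were Cxcl10 at -4.51, Mx1 at -4.17, Oasl1 at -3.90, the chemokine Ccl12 at -3.79 and Cmpk2, a mitochondrial nucleotide kinase, at -3.66. None of the 456 calls was made without B6 unstimulated array 2 or without array 3, where 3342 and 3258 genes had an unadjusted limma p below the threshold of 0.05.

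The gap between CB-R1 minus B6 and C3Bir minus BC-R3, which carry different forms of Cdcs1, was called in 5109 genes. The high arrays lie on the B6 side of CB-R1 minus B6 and on the C3Bir side of C3Bir minus BC-R3. In this gap the form of Cdcs1 and the high arrays cannot be told apart. CB-R1 minus B6 exceeded C3Bir minus BC-R3 by 3.84 in Gpr34, by 3.42 in the cannabinoid receptor gene Cnr2, by 3.20 in Arhgap19, by 3.10 in the integrin gene Itga6 and by 3.00 in Zfp36l1, an RNA-binding protein. The largest negative gaps were Cxcl3 at -10.03, Acod1 at -7.06, Cd69 at -6.58, Cxcl2 at -6.52 and Il12b at -6.48. Gpr34 had no overlap between CB-R1, at 8.28, 7.68 and 7.23, and B6, at 4.57, 4.78 and 4.82. These B6 values lay below the lower quartiles of the arrays, 5.29 to 5.42, so their likeness says little. The gap of Gpr34 also rests on C3Bir minus BC-R3, which includes high arrays of C3Bir. Without the 4 high arrays limma called 0 genes for this gap, with 1900 unadjusted.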

How the results depend on the processing

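The 5741 genes of CB-R1 minus B6 unstimulated became 1287 without the 4 high arrays, and lay between 4148 and 6337 when 1 array was left out. Quantile normalization gave 5860 with 55.5% higher, against 64.6% as reported, and turned the flagellin split to 47.8% higher, against 58.8%. Flagellin counts ranged over 991 to 1849 with 1 array left out, those of C3Bir minus BC-R3 over 793 to 2255, and those of the gap by Cdcs1 form over 3444 to 6070. C3Bir minus BC-R3 gave 485 without the high arrays and 520 in its own arrays alone, and the gap by Cdcs1 form gave 0 without the high arrays. The 456 genes that depended on condition became 241 with trend and robust options, 0 with averaged probe sets (4535 at an unadjusted p under 0.05 in limma), 0 in the compared arrays alone (4156) and 0 without the high arrays (1025); leaving out 1 array gave 0 to 3117. The cause of these shifts was not tested. The share of chromosome 3 genes called was 30.0%, or 2.19% for calls in all 3 comparisons. With same-numbered arrays as a replicate block the count was 5840, 3778 higher and 2062 lower, and the 5 counts of genes stayed within 1.5 times of the main ones. For C3Bir minus B6, with 3046 genes, the block gave 3174, or 2988 in those arrays alone.

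Of the 137 called genes selected for naming, 118 were called whichever array was left out, 75 without the high arrays, and 136 kept their direction there; Cx3cr1, a chemokine receptor, turned to -0.27, against 1.25 as reported. The values limit what can be said of low genes, since no call of detection was used.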

Other observations

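Feedback and clock-related genes not described above also differed, beside 20.4% higher and 11.2% lower among all genes. Of 29 immediate early and circadian genes 11 were higher and 4 lower in CB-R1 (median 0.19), or 3 higher and 0 lower without the 4 high arrays. Tsc22d3, a glucocorticoid-induced regulator, had 10.09, 10.17 and 10.15 in CB-R1, against 8.67, 7.79 and 7.76 in B6 (2.06 ± 0.27, limma adjusted p = 1.59e-05), although 1 of 3 further probe sets pointed the other way. Btg2, an antiproliferative gene, had 10.33, 10.18 and 10.58 in CB-R1, against 9.26, 9.29 and 9.36 in B6, and was higher in all 3 comparisons, by 1.06, 1.00 and 0.84. Ier3, an early response gene, differed by -1.26 ± 0.26.

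Scavenger receptors were more often higher, while the share that fell was near that of all genes (20.4% higher and 11.2% lower). Of 25 genes 10 were higher and 3 lower in CB-R1 (median 0.28), or 1 and 1 without the high arrays, with Colec12 the largest rise and Cd5l, Olr1 and Marco the 3 that fell. Marco, which binds bacteria, had 6.97, 7.08 and 7.73 in CB-R1, against 9.06, 9.84 and 9.85 in B6 (-2.32 ± 0.56, limma adjusted p = 0.00320), and stood at -1.80 (adjusted p = 0.120) without the high arrays. Cd5l stood at -2.62 without them. Of 18 genes of alternative activation 2 were higher and 4 lower (median 0.04), and limma called 0 of the list without the high arrays. Ccl22, a chemokine of this state, had 6.73, 6.88 and 6.97 in CB-R1, against 7.53, 10.64 and 10.58 in B6. Chil3, a chitinase-like protein of alternative activation, had 13.03, 13.04 and 13.18 in CB-R1, against 12.37, 12.0 and 11.96 in B6, and its difference was 0.98, 1.00 and 0.94 in the 3 comparisons. This gene lies on chromosome 3, and unstimulated C3Bir was not higher than B6, at -0.33 ± 0.24 (limma adjusted p = 0.409).

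Of 8 chemokine receptor genes 3 were higher and 1 lower, or 2 and 0 without the high arrays, beside 20.4% higher and 11.2% lower among all genes. Ccr1, a receptor of CC chemokines, had 9.76, 9.74 and 9.40 in CB-R1, against 8.66, 9.12 and 8.98 in B6 (0.71 ± 0.15, limma adjusted p = 0.00113), and stood at 0.97 without the high arrays. Fpr2, a formyl peptide receptor, had 8.36, 8.83 and 9.42 in CB-R1, against 10.50, 11.31 and 11.47 in B6, and stood at -1.63 (limma adjusted p = 0.379) without the high arrays.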
